A study of Drosophila melanogaster with 12 samples.

Results

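The vacuolar proton ATPase (V-ATPase) genes were followed in RNA-seq of adult Drosophila melanogaster females with a conditional knockout of the estrogen-related receptor gene ERR. They were taken as every gene of the deposited count table whose name begins with Vha, which gave 33 of 17558 genes. Of these, 13 encode subunits of the V1 sector, 18 encode subunits of the V0 sector and 2 encode accessory proteins. RNA was from whole bodies, with 10 females per library and 3 libraries per group from independent experiments. The total ran from 17167432 to 20625801 counts per library.

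The ERR[cond.2] knockout females carried the ERR1 and ERR2 mutant alleles and had lost an FRT-flanked ERR::GFP transgene after heat shock, and the ERR[cond.2] control females were siblings of the same genotype with no heat shock. The ERR[cond.19-4] knockout females had lost most of an FRT-flanked ERR gene at its own locus in the ERR2 background, and the ERR[cond.19-4] control females were their siblings with no heat shock. ERR2 is a deletion that also reaches the neighbouring genes CG7979 and atg18, and it is present in all 4 groups. For the knockout, females aged 0 to 2 d received 2 heat shocks at 37 °C, 24 h apart, and knockouts and siblings were compared 7 d after heat shock. Loss of ERR and exposure to heat therefore cannot be told apart, and the whole body was targeted rather than a tissue. The columns of the table number the alleles, and the group numbered 2 was taken as cond.2, a match not stated in the sources used here. In cond.19-4 females the ERR transcript was at 3.25 to 4.01 CPM, counts scaled to the library size, in knockouts, against 5.62 to 7.76 CPM in controls (log2 fold change −0.83, SE 0.18, edgeR adjusted p = 0.0228). In cond.2 females it was at 9.53 to 10.4 CPM in knockouts, against 8.52 to 12.1 CPM in controls (log2 fold change 0.01, SE 0.17, edgeR adjusted p = 0.988). Transcripts of the ERR1 allele could be counted as ERR in the cond.2 females. Their share was not measured, so the level there does not show whether or how far the transgene was excised.

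The V-ATPase is a rotary pump. Its V1 sector, on the cytosolic side, hydrolyses ATP, and its V0 sector, in the membrane, carries protons across. It acidifies endosomes and lysosomes in all cells, and synaptic vesicles in neurons. In insects it also sits in the apical membrane of epithelia such as the Malpighian tubule and the copper cells of the midgut. There the proton gradient drives ion transport. In V1, subunits A and B form the ATP-binding ring, D and F form the central shaft, and C, E, G and H form the stalks that hold the ring and control its attachment. In V0, the c and c'' proteolipids form the rotating ring, subunit a holds the path of the protons, d joins the ring to the shaft, and e is a small membrane subunit. Several subunits are encoded by gene families in flies, some members of which are used in particular tissues.

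The genes covered 15 subunits or accessory proteins, and 7 of these had a single gene. A transcript was tested where it passed the filter on low counts, and 22 of the 33 did so in every comparison. The other 11 had at most 19 counts and 0.925 CPM in any library. They were VhaPPA1-2, VhaAC39-2, Vha68-3, Vha16-5, Vha36-2, Vha14-2, VhaM9.7-d, Vha16-4, Vha100-3, Vha16-3 and Vha16-2. The last pair, neighbouring c genes on chromosome arm 3L, had no count in any library. Of the 22, 15 were at 100 CPM or more in every library, and 4 were under 20 CPM in every library, namely Vha100-4, Vha68-1, Vha36-3 and VhaM9.7-a. The Vha genes together took 0.399 to 0.618% of all counts.

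Between genes, levels were compared per length as FPKM. Vha13, which encodes subunit G of the peripheral stalks, had the highest mean over the 12 libraries at 777 FPKM, with a range of 651 to 865 FPKM. Vha16-1, which encodes the main c proteolipid, followed at 361 FPKM (310 to 406), and Vha14-1, subunit F, at 274 FPKM (224 to 317). The range of Vha13 stood clear of the rest, whereas those of Vha16-1 and Vha14-1 touched. Vha36-1 (D) averaged 206 FPKM, Vha55 (B) 173, VhaM9.7-b (e) 167, Vha68-2 (A) 154, VhaM8.9 145, Vha26 (E) 142, VhaPPA1-1 (c'') 135, VhaAC39-1 (d) 134 and VhaAC45 122 FPKM, and the range of each of these overlapped that of its neighbours. The lower end held Vha100-2 (a) at 62.7, VhaSFD (H) at 49.6 and Vha44 (C) at 42.4 FPKM.

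A single paralog supplied nearly all the transcript of most families, as a share of the summed FPKM of the family in each library. Vha68-2 supplied 96.7 to 98.3% of the subunit A transcript, Vha36-1 supplied 98.8 to 99.4% of D, and VhaPPA1-1 supplied 99.0 to 99.8% of c''. VhaAC39-1 supplied 99.6 to 99.9% of the d transcript, and Vha16-1 99.89 to 100% of c. Subunit e was shared by VhaM9.7-b, with 78.8 to 82.6%, and VhaM9.7-c, with 16.7 to 20.3%. Subunit a was the most divided, among Vha100-2 with 48.9 to 66.6%, Vha100-1, known from synaptic vesicles, with 21.1 to 26.6%, Vha100-5 with 4.62 to 27.5% and Vha100-4, known from copper cells, with 2.54 to 4.99%. How reads shared by close paralogs were counted is not known from the sources used here, so values of minor paralogs are uncertain.

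**Figure D1:**
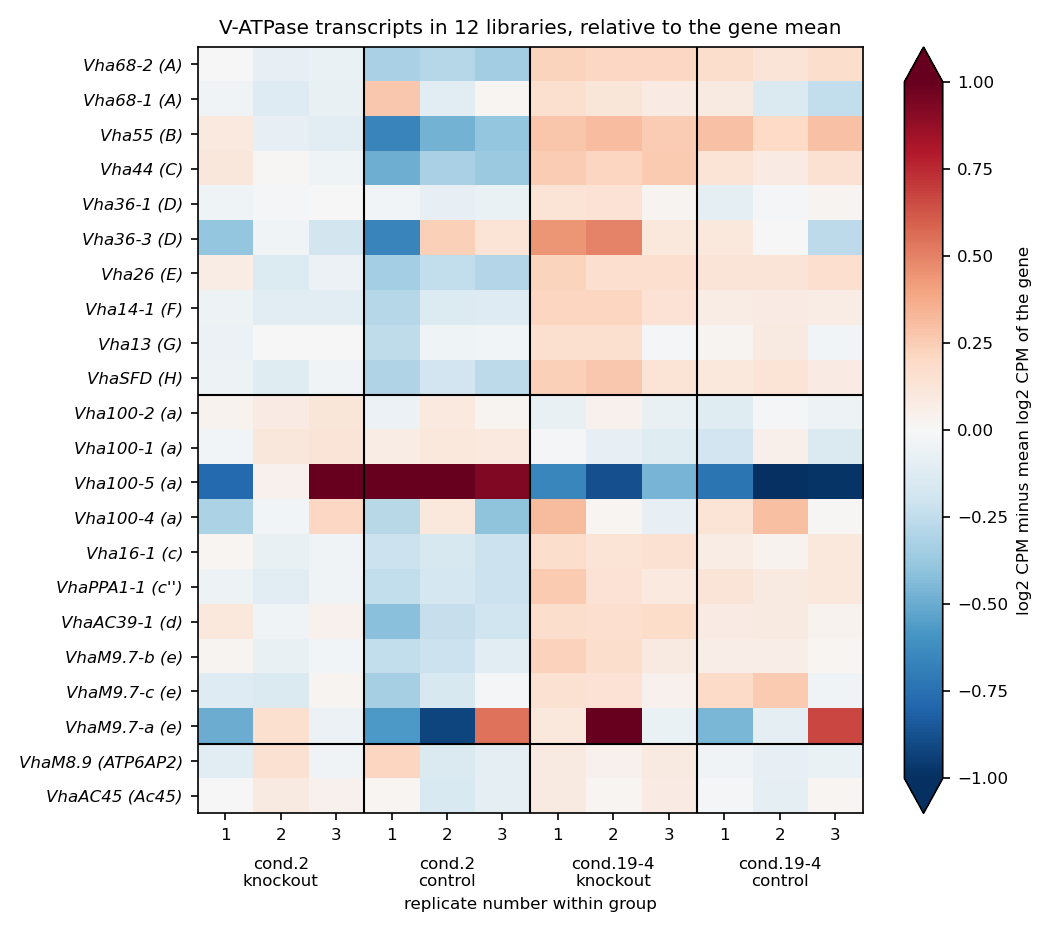
Level of the 22 tested V-ATPase transcripts in each of the 12 libraries (columns, by group and replicate number), as log2 CPM minus the mean log2 CPM of that gene, with rows ordered by V1, V0 and accessory genes and the subunit in parentheses. Most rows are lowest in the cond.2 controls and highest in the cond.19-4 females, and Vha100-5 runs the other way, with 52.8 to 98.6 CPM in the cond.2 controls.

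The first question was whether the V-ATPase transcripts differed between knockout and control females of an allele. In cond.2 females 18 of the 22 had a positive log2 fold change and 4 a negative one, with a median of 0.10 against −0.01 over all 9660 genes tested. None passed an adjusted p of 0.05 in edgeR's quasi-likelihood test, in which 0.631% of all genes tested were called, 0.166% as higher and 0.466% as lower, and DESeq2 called 3 of the 22, against 5.92% of all genes. An unadjusted p under 0.05 was found for 6 of the 22, against 22.4% of all genes. In cond.19-4 females 20 were positive and 2 negative, with a median of 0.10 against −0.00 over 9717 genes. Again none passed the threshold in edgeR, with 3.7% of all genes called, 2.67% as higher and 1.04% as lower, and DESeq2 called 0 of the 22, against 4.38% of all genes. An unadjusted p under 0.05 was found for 8 of the 22, against 15.4% of all genes. The summed level of the 33 genes was 5308, 5147 and 5239 CPM in the 3 cond.2 knockout libraries, against 4544, 4738 and 4698 CPM in the cond.2 controls. It was 5982, 5902 and 5752 CPM in the cond.19-4 knockouts, against 5581, 5548 and 5598 CPM in the cond.19-4 controls. Knockout libraries thus lay above their own controls with both alleles, and cond.19-4 controls lay above cond.2 knockouts.

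In cond.2 females all 3 knockout libraries lay above all 3 controls for 10 of the 22 transcripts, where this held for 16.7% of all genes, and for 0 of the 22 they lay below (13.8% of all genes). In cond.19-4 females the knockouts lay above the controls for 9 (10.3% of all genes) and below for 0 (10.1% of all genes). Averaged over both alleles in a fit of all 12 libraries, 4 of the 22 rose and 0 fell, where 2.1% of all 10029 genes tested rose and 4.19% were called in either direction. Of the 22, 12 had an unadjusted p under 0.05, against 21.5% of all genes, and DESeq2 called 8, against 8.21% of all genes. The 4 that rose were Vha44, Vha55, Vha68-2 and VhaAC39-1, which encode subunits C, B and A of V1 and subunit d of V0. The fit of all 12 libraries used 1 estimate of the spread for both alleles. For cond.2 knockout against control it called 14.1% of all genes, against 0.631% in the fit of the cond.2 libraries alone. For cond.19-4 it called 0.937%, against 3.7%. The calls on average depend on this shared spread.

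Vha44 encodes subunit C, which in yeast leaves the pump when V1 and V0 come apart. Its transcript was at 182, 169 and 163 CPM in cond.2 knockouts, against 120.1, 134 and 130.3 CPM in cond.2 controls. In cond.19-4 females it was at 201, 196 and 201 CPM in knockouts, against 185, 179 and 187 CPM in controls. Every knockout library was above its controls with both alleles. The log2 fold change was 0.41 (SE 0.08, edgeR adjusted p = 0.0894) in cond.2 females, 0.12 (SE 0.04, adjusted p = 0.148) in cond.19-4 females and 0.27 (SE 0.04, adjusted p = 0.00419) on average. Vha44 lies on the opposite strand to Hmgs, an enzyme of the mevalonate pathway, with an overlap of 548 bp, and the use of strand in counting is not given. The Hmgs transcript had a log2 fold change of −0.28 (SE 0.17, edgeR adjusted p = 0.344) in cond.2 females, of opposite sign to that of Vha44.

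Vha55 encodes subunit B, the non-catalytic ATP-binding subunit, and is its single gene in the table. It was at 502, 443 and 434 CPM in cond.2 knockouts, against 297, 338 and 359 CPM in cond.2 controls. In cond.19-4 females it was at 568, 581 and 561 CPM in knockouts, against 574, 539 and 574 CPM in controls. The cond.2 groups stood apart, whereas the cond.19-4 groups overlapped. The log2 fold change was 0.46 (SE 0.10, edgeR adjusted p = 0.118) in cond.2 females and 0.02 in cond.19-4 females, with a 95% interval of −0.07 to 0.12. The average was 0.25 (SE 0.06, edgeR adjusted p = 0.0284). The difference between the alleles was 0.45 (SE 0.11) with an adjusted p of 0.0946, the largest positive difference among the 22.

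Vha68-2 encodes subunit A, which holds the catalytic site. It was at 419, 396 and 401 CPM in cond.2 knockouts, against 336, 344 and 330.0 CPM in cond.2 controls, and at 489, 485 and 486 CPM in cond.19-4 knockouts, against 474, 459 and 474 CPM in cond.19-4 controls. Both pairs of groups stood apart. The log2 fold change was 0.26 (SE 0.07) in cond.2 females and 0.06 (SE 0.04) in cond.19-4 females, and the average was 0.16 (SE 0.04, edgeR adjusted p = 0.0267). VhaAC39-1, subunit d, was at 256, 232 and 246 CPM in cond.2 knockouts, against 179, 204 and 208 CPM in cond.2 controls. It was at 269, 268 and 271 CPM in cond.19-4 knockouts, against 252, 253 and 245 CPM in cond.19-4 controls. The knockouts were higher without overlap with both alleles, and the average log2 fold change was 0.21 (SE 0.05, edgeR adjusted p = 0.0249).

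These average changes were small and, Vha44 apart, close to the threshold. Leaving out any of the 6 cond.19-4 libraries left Vha44 as the only call, where 1.57 to 2.89% of all genes were called. Leaving out cond.2 knockout library 1 left 2 calls, against 2.81% of all genes. With all libraries the share was 4.19%. Without cond.2 knockout library 3 there were 5, against 5.53% of all genes, with Vha100-5 among them as lower (log2 fold change −0.76, edgeR adjusted p = 0.0404). For the difference between the alleles, edgeR called 0 of the 22, against 0.0598% of all genes, with 6 at an unadjusted p under 0.05, against 22.2% of all genes. DESeq2 called Vha55, Vha68-2 and Vha44, where it called 4.72% of all genes.

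**Figure D2:**
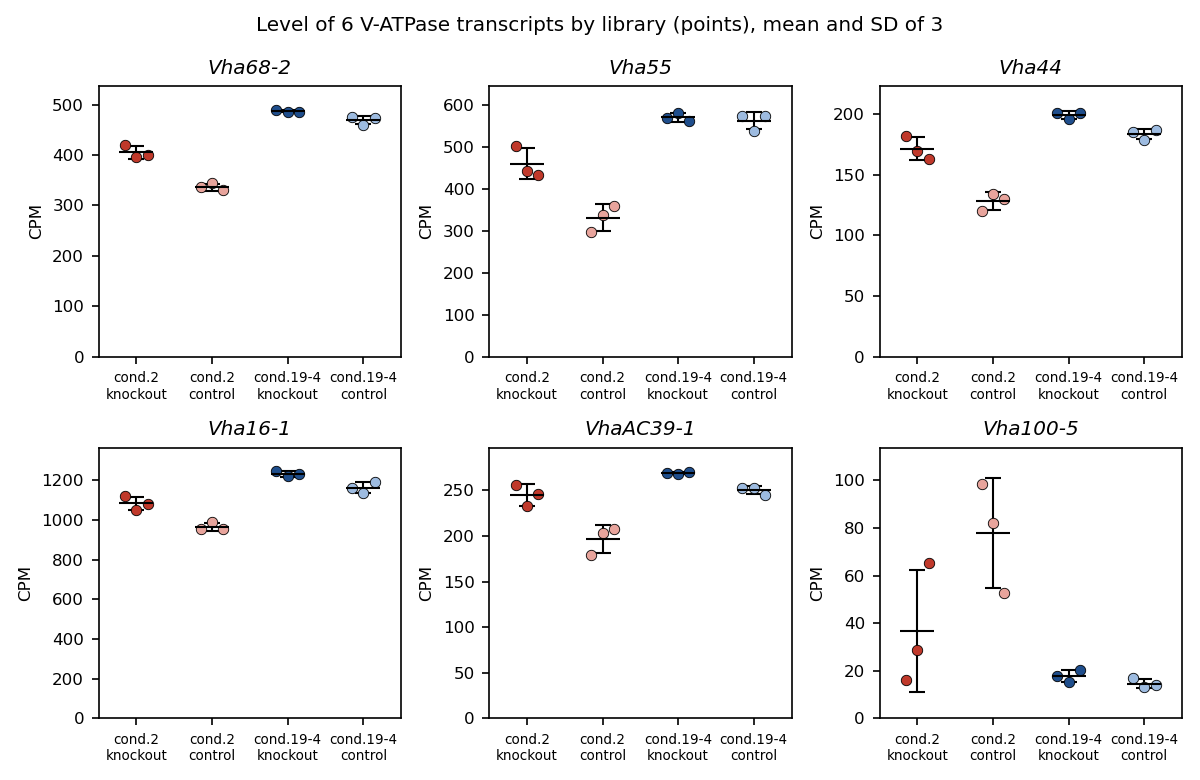
Level of 6 V-ATPase transcripts in CPM (vertical axes, starting at 0) in the 4 groups, with a point for each library and a line and bars for the mean and SD of 3 libraries. The cond.2 knockouts lie above the cond.2 controls for Vha68-2, Vha55, Vha44, Vha16-1 and VhaAC39-1, and for Vha100-5 the 3 knockout libraries spread from 16.2 to 65.3 CPM.

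The other main subunits had knockout effects of the same sign that did not pass the threshold on average. Vha16-1, the c proteolipid, was at 1119, 1051 and 1081 CPM in cond.2 knockouts, against 953, 988 and 954 CPM in cond.2 controls. It was at 1249, 1219 and 1233 CPM in cond.19-4 knockouts, against 1163, 1135 and 1191 CPM in cond.19-4 controls. The groups did not overlap with either allele, and the average log2 fold change was 0.13 (SE 0.04, edgeR adjusted p = 0.0723). VhaSFD, subunit H, which in yeast inhibits V1 set free from V0, was at 134, 128 and 136 CPM in cond.2 knockouts, against 113, 122 and 116 CPM in cond.2 controls, and at 164, 167 and 153 CPM in cond.19-4 knockouts, against 149, 153 and 147 CPM in cond.19-4 controls. Its average log2 fold change was 0.15 (SE 0.04, edgeR adjusted p = 0.0569), and only the cond.2 groups stood apart.

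Vha26, subunit E of the peripheral stalks, was at 435, 375 and 397 CPM in cond.2 knockouts, against 327, 348 and 337 CPM in cond.2 controls. In cond.19-4 females it was at 482, 464 and 464 CPM in knockouts, against 452, 452 and 465 CPM in controls. The cond.2 groups stood apart and the cond.19-4 groups overlapped, with an average of 0.15 (SE 0.04, edgeR adjusted p = 0.0735). VhaM9.7-b, the main subunit e gene, was at 206, 192 and 198 CPM in cond.2 knockouts, against 171, 174 and 187 CPM in cond.2 controls, and at 238, 228 and 215 CPM in cond.19-4 knockouts, against 212, 211 and 204 CPM in cond.19-4 controls. Both pairs stood apart, with an average of 0.14 (SE 0.04, edgeR adjusted p = 0.0774).

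VhaPPA1-1, the c'' proteolipid, was at 175, 169 and 177 CPM in cond.2 knockouts, against 153, 160.0 and 156 CPM in cond.2 controls. It was at 217, 200.03 and 193 CPM in cond.19-4 knockouts, against 198, 193 and 195 CPM in cond.19-4 controls. The first pair stood apart and the second overlapped. Vha14-1, subunit F of the shaft, was at 174, 167 and 167 CPM in cond.2 knockouts, against 148, 164 and 165 CPM in cond.2 controls, and at 209, 209 and 198 CPM in cond.19-4 knockouts, against 189, 191 and 189.9 CPM in cond.19-4 controls. All knockout libraries were above their controls, by a log2 fold change of 0.08 (SE 0.08) in cond.2 females and 0.12 (SE 0.04, edgeR adjusted p = 0.178) in cond.19-4 females.

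Some subunits were close to level in cond.2 females. Vha36-1, the other shaft subunit (D), was at 213, 217 and 220.0 CPM in cond.2 knockouts, against 215, 207 and 209.7 CPM in cond.2 controls. It was at 240.4, 242 and 224 CPM in cond.19-4 knockouts, against 206, 216 and 223 CPM in cond.19-4 controls. The cond.2 groups overlapped, with a 95% interval of the log2 fold change of −0.12 to 0.19. Vha13, subunit G, was at 702, 728 and 729 CPM in cond.2 knockouts, against 614, 708 and 719 CPM in cond.2 controls, and at 815, 815 and 725 CPM in cond.19-4 knockouts, against 743, 777 and 717 CPM in cond.19-4 controls. Both pairs overlapped, and the average log2 fold change had an interval of −0.04 to 0.19.

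Both accessory proteins take part in assembly and trafficking of the pump. VhaM8.9, the fly ATP6AP2 (prorenin receptor), was at 196, 235 and 207 CPM in cond.2 knockouts, against 245, 191 and 198 CPM in cond.2 controls, which overlapped. In cond.19-4 females it was at 225, 218 and 226 CPM in knockouts, against 207, 200.5 and 202 CPM in controls. These groups stood apart, with a log2 fold change of 0.14 (SE 0.04, edgeR adjusted p = 0.0989), the lowest p of the 22 in cond.19-4 females. VhaAC45, the fly Ac45, was at 244, 260.4 and 252 CPM in cond.2 knockouts, against 247, 219.9 and 229.8 CPM in cond.2 controls, and at 260.1, 248 and 258 CPM in cond.19-4 knockouts, against 241, 229 and 247 CPM in cond.19-4 controls. The cond.2 groups overlapped and the cond.19-4 groups did not.

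**Figure D3:**
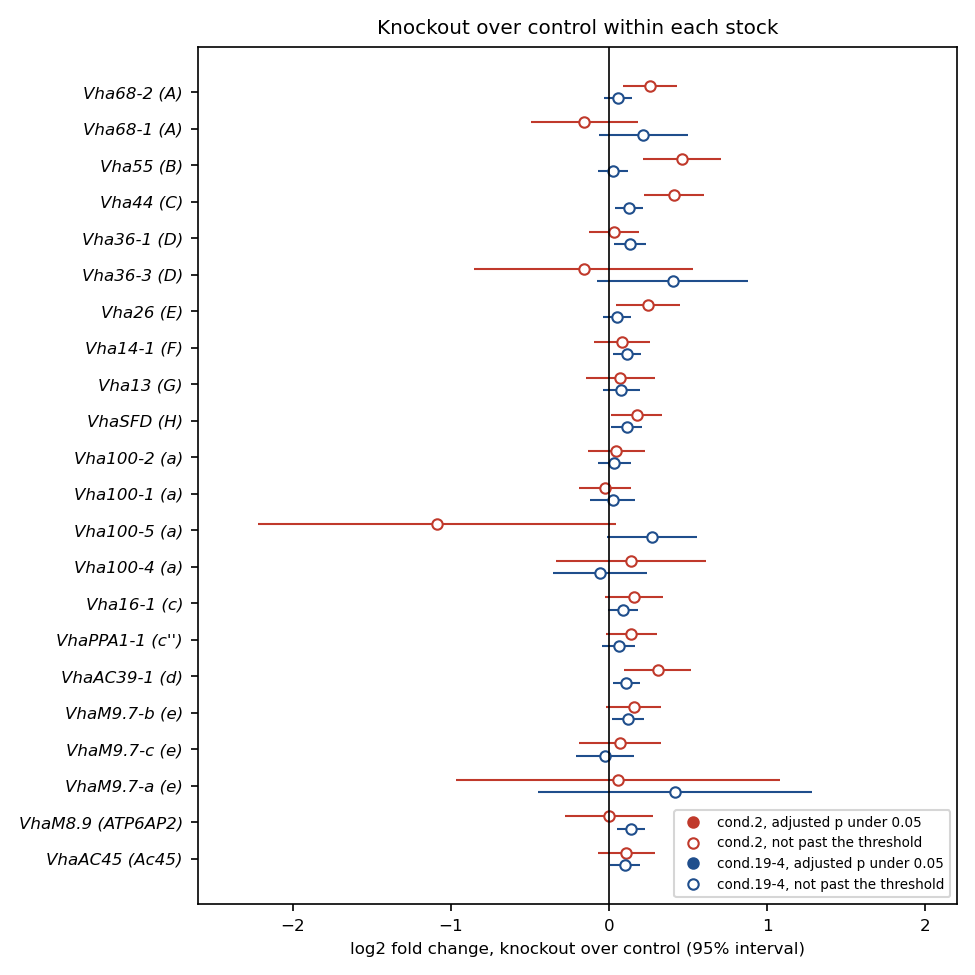
Log2 fold change of knockout over control (horizontal axis) with its 95% interval for the 22 tested V-ATPase transcripts, cond.2 females in red and cond.19-4 females in blue, filled where the adjusted p was under 0.05 in edgeR. No marker is filled, 18 of the 22 cond.2 values and 20 of the 22 cond.19-4 values lie right of 0, and the widest departure is Vha100-5 in cond.2 females at −1.09.

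The second question was how the 2 stocks differed, among controls and among knockouts. These 2 comparisons share no library, but both come from the same fit of all 12 libraries. Each group in them also enters the knockout comparison of its allele above. The stocks differ in genotype, and stock and allele cannot be told apart. Between controls, 11 of the 22 transcripts were lower in cond.2 than in cond.19-4 females and 1 was higher. Over all 10029 genes tested 46.9% were called, 24.2% as lower and 22.7% as higher. The median log2 fold change was −0.26 over the 22, against −0.02 over all genes. The groups did not overlap for 10 lower transcripts, against 29.4% of all genes, and for 2 higher ones, against 27% of all genes. Scaling by total counts in place of the trimmed mean of M values moved the median of all genes to −0.19 and gave 15 lower and 1 higher, where 52% of all genes were called in either direction.

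The lower transcripts came from both sectors, with 6 of 10 tested V1 genes and 5 of 10 tested V0 genes. The largest decrease was that of Vha55, with the values given above and no overlap (log2 fold change −0.76, SE 0.08, edgeR adjusted p = 2.53e-05). Vha44 followed at −0.52 (SE 0.06, adjusted p = 5.29e-05), and Vha68-2 at −0.48 (SE 0.05, adjusted p = 2.75e-05). Vha26 was at −0.43, VhaSFD at −0.36, VhaAC39-1 at −0.35, VhaPPA1-1 at −0.32, Vha16-1 at −0.27, Vha14-1 at −0.26 and VhaM9.7-b at −0.24, with adjusted p from 0.000191 to 0.00569 in edgeR. Hmgs, which overlaps Vha44 on the other strand, was higher in the cond.2 controls (log2 fold change 0.60, SE 0.13, edgeR adjusted p = 0.00334).

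The eleventh was VhaM9.7-c, the minor subunit e gene. It was at 25.3, 28.5 and 31.4 CPM in cond.2 controls, against 36.2, 38.1 and 30.9 CPM in cond.19-4 controls, and the groups overlapped (log2 fold change −0.30, SE 0.10, edgeR adjusted p = 0.0254). In knockouts it was at 29.003, 28.7 and 32.3 CPM in cond.2 females, against 35.2, 35.2 and 32.8 CPM in cond.19-4 females. The call between controls was lost without library 1 or 2 of either control group, with an adjusted p of up to 0.122 over the alternatives. Its 848 bp lie wholly within Teh2 on the same strand, which had at most 46 counts, and within CG18675 on the other strand, which had at most 2.

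Other subunits were not called as lower. Vha36-1 had a log2 fold change of −0.03 between the controls with an interval of −0.15 to 0.09, and Vha13 of −0.13 with an interval of −0.29 to 0.03. The accessory genes had values of 0.06 for VhaM8.9, with an interval of −0.14 to 0.26, and −0.04 for VhaAC45, with an interval of −0.17 to 0.09. Among the subunit a genes Vha100-2 was at 0.09 and Vha100-1 at 0.18 (SE 0.07, edgeR adjusted p = 0.0503). Vha100-2 was at 206, 214 and 219 CPM in cond.2 knockouts and 194, 215 and 206 CPM in cond.2 controls. It was at 191, 208 and 192 CPM in cond.19-4 knockouts and 185, 199 and 195 CPM in cond.19-4 controls, so that knockouts overlapped controls with both alleles and cond.2 overlapped cond.19-4 females in both states. Vha100-2 shares 2175 bp with CG44009 on the other strand, which had at most 500 counts, against 4284 for Vha100-2.

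Between knockouts 9 of the 22 were lower in cond.2 than in cond.19-4 females and 0 were higher, where 19.6% of all genes tested were called, 7.73% as lower and 11.8% as higher. The median was −0.19, against −0.01 over all genes, and 14 of the 22 did not overlap as lower, against 18.9% of all genes, and 0 as higher, against 20.3%. The 9 were Vha68-2, VhaSFD, Vha14-1, Vha55, VhaPPA1-1, Vha16-1, Vha26, Vha44 and VhaM9.7-b, and each of them was also among the 11 lower ones between controls. Their log2 fold changes ran from −0.19 to −0.31, with adjusted p from 0.0035 to 0.0399 in edgeR. Vha68-2 was at −0.26 (SE 0.05), Vha14-1 at −0.28 (SE 0.06) and VhaSFD at −0.28 (SE 0.05), and these 3 were called under every alternative. Without cond.2 knockout library 2 or 3, or without cond.19-4 knockout library 1 or 2, the count was 4. In these fits 11.4 to 13.3% of all genes were called, against 19.6% with all libraries.

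**Figure D4:**
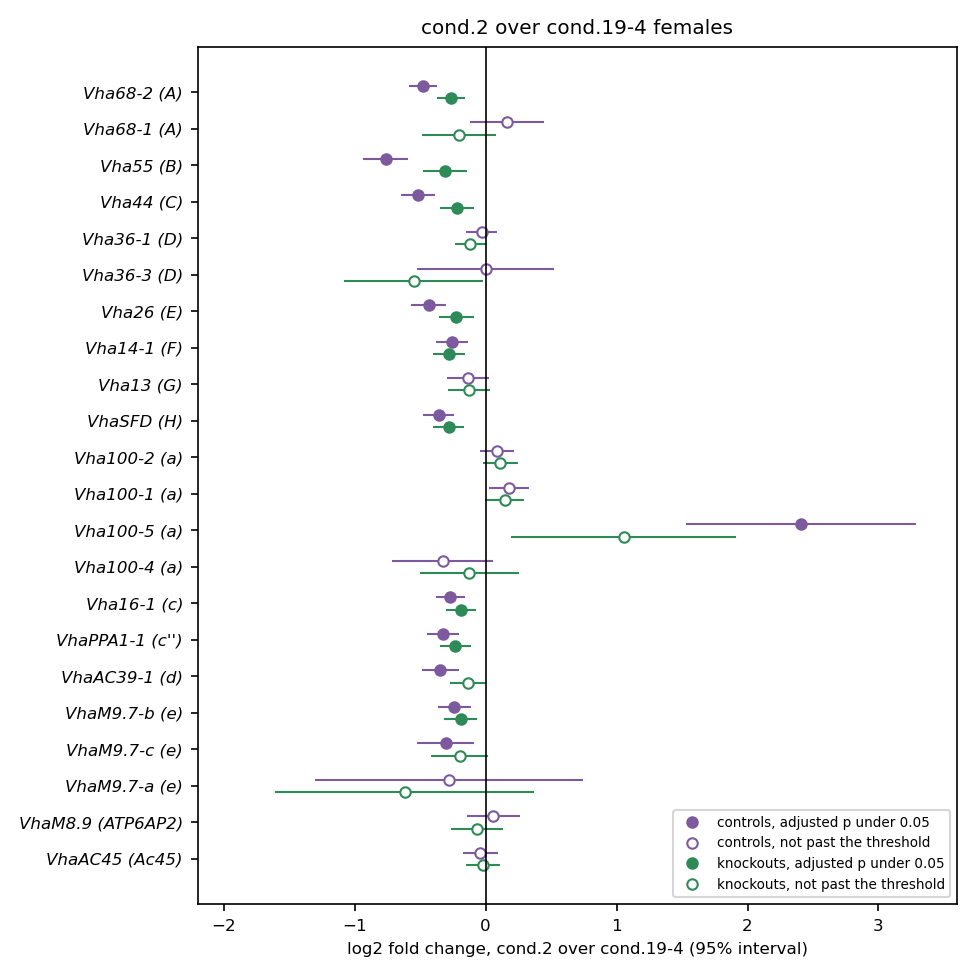
Log2 fold change of cond.2 over cond.19-4 females (horizontal axis) with its 95% interval for the 22 tested V-ATPase transcripts, controls in purple and knockouts in green, filled where the adjusted p was under 0.05 in edgeR. In the controls 11 filled markers lie left of 0 and Vha100-5 lies right at 2.41, and in the knockouts 9 filled markers lie left of 0.

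The exception among the subunit a genes was Vha100-5, on chromosome arm 2L from 11738948 to 11744524 on the plus strand. Its transcript was at 16.2, 28.6 and 65.3 CPM in cond.2 knockouts, against 98.6, 82.0 and 52.8 CPM in cond.2 controls. In cond.19-4 females it was at 17.7, 15.1 and 20.2 CPM in knockouts, against 16.8, 13.0 and 14.1 CPM in controls. The cond.2 controls were far above the cond.19-4 controls, and the cond.2 knockouts spread from the level of cond.19-4 females to within the range of their own controls. Between controls the log2 fold change was 2.41 (SE 0.40, 95% interval 1.53 to 3.29, edgeR adjusted p = 0.000546), the opposite direction to the other calls. Between knockouts it was 1.06 (SE 0.39, edgeR adjusted p = 0.0805).

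Knockout against control, Vha100-5 had a log2 fold change of −1.09 (SE 0.48, 95% interval −2.22 to 0.04, edgeR adjusted p = 0.234) in cond.2 females and 0.27 (SE 0.13, adjusted p = 0.35) in cond.19-4 females. The difference between the alleles was −1.35 (SE 0.55, edgeR adjusted p = 0.186). The difference between the alleles depended on library 3 of the cond.2 knockouts. Without this library it was −2.07 (edgeR adjusted p = 0.0221) and Vha55 was called as well. The share of all genes called for this difference was then 4.8%, against 0.0598% with all libraries. The difference between the knockouts of the stocks was then 0.35 (edgeR adjusted p = 0.455). The same library left out moved the cond.2 effect to −1.81 (edgeR adjusted p = 0.096).

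As a share of the summed FPKM of the subunit a genes, Vha100-5 took 5.74, 9.20 and 18.4% in cond.2 knockouts, against 27.5, 22.4 and 16.3% in cond.2 controls. In cond.19-4 females it took 6.40, 5.34 and 7.45% in knockouts, against 6.45, 4.62 and 5.28% in controls. The sum of the subunit a genes was 96.9, 107 and 122 FPKM in cond.2 knockouts, against 123, 125 and 111 FPKM in cond.2 controls. The subunit a sum of each cond.2 control was thus above that of every cond.19-4 library, which had at most 96.9 FPKM. Of the rest of the family, Vha100-1 lay between 71.1 and 88.9 CPM and Vha100-4 between 7.83 and 12.9 CPM over the 12 libraries, and neither was called in any of the 6 comparisons.

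**Figure D5:**
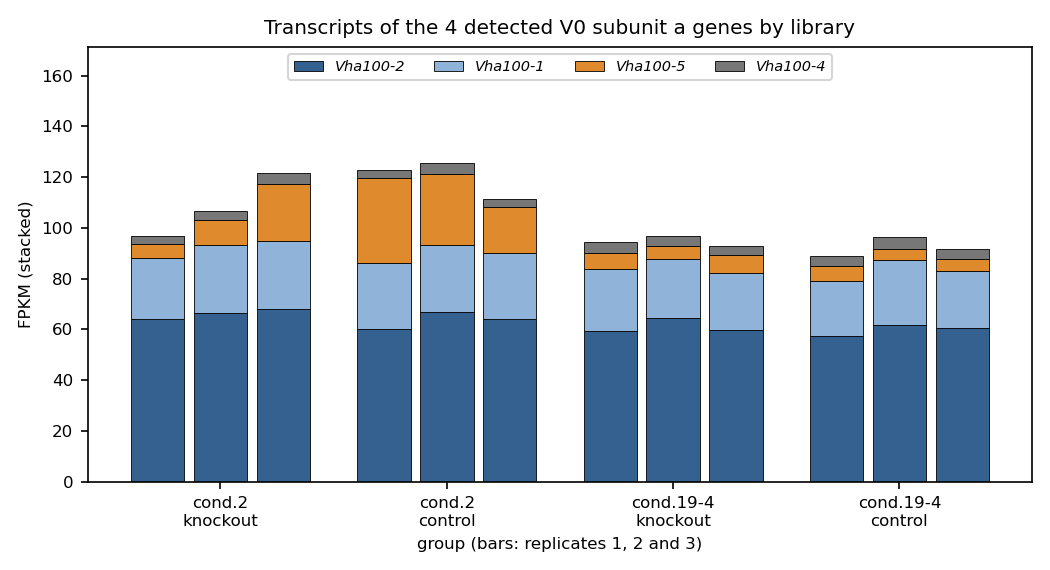
Level of the 4 detected V0 subunit a genes in FPKM, stacked in a bar for each of the 3 libraries of each group (horizontal axis). Vha100-5 makes up 16.3 to 27.5% of the bar in cond.2 controls and 4.62 to 7.45% in cond.19-4 females, and the Vha100-2 segment changes little.

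Markers of several tissues were set beside these values. The 6 follicle cell markers, vitelline membrane and chorion genes, were all at 1 CPM or more in every library. All 6 were lower in cond.2 than in cond.19-4 controls, against 24.2% of all genes, with Vml at −2.59 (edgeR adjusted p = 8.5e-05). Their summed level was 22761, 18921 and 11736 CPM in cond.2 knockouts, against 4076, 10579 and 7191 CPM in cond.2 controls, and 19768 to 21605 CPM in cond.19-4 knockouts, against 18455 to 26873 CPM in cond.19-4 controls. The cond.2 controls were thus lowest both in follicle cell markers and in most V-ATPase transcripts. The 5 fat body markers, chiefly the yolk protein genes Yp1, Yp2 and Yp3, summed to 29342, 38871 and 49944 CPM in cond.2 knockouts, against 98892, 57757 and 88382 CPM in cond.2 controls. They stood at 28229 to 28608 CPM in cond.19-4 knockouts, against 25813 to 33696 CPM in cond.19-4 controls. The yolk protein genes are transcribed in follicle cells as well, so this sum is not of the fat body alone. Of the 5 fat body markers 3 were higher in cond.2 than in cond.19-4 controls, against 22.7% of all genes, with Yp2 at 1.93 (edgeR adjusted p = 0.000112). In the cond.2 knockouts both the fat body sum and the Vha100-5 level rose from library 1 to library 2 to library 3. In the cond.2 controls library 1 was highest in both, but the other libraries had opposite orders. Library 3 had the lowest Vha100-5 level, 52.8 CPM, with a fat body sum of 88382 CPM. Library 2 had 82.0 CPM with the lowest sum, 57757 CPM. Among the cond.19-4 controls, library 1 had the highest Vha100-5 level, 16.8 CPM, and the lowest fat body sum, 25813 CPM. Among the cond.19-4 knockouts, library 3 had the highest Vha100-5 level, 20.2 CPM, and the lowest fat body sum, 28229 CPM. Knockout against control in cond.2 females, all 6 follicle cell markers had a positive log2 fold change, with a median of 1.35, and all 5 fat body markers a negative one, with a median of −1.16, and none of these 11 passed the threshold in edgeR. In cond.19-4 females all 6 follicle cell markers had a negative log2 fold change, with a median of −0.05. Of the 5 fat body markers 2 were positive and 3 negative there, and none of either list was called. On average over the alleles the fat body marker Yp3 was lower, at −0.56 (edgeR adjusted p = 0.0478), where 2.08% of all genes were lower. The part of the follicle cell and fat body markers in the V-ATPase results was not tested. In RNA from whole bodies, fewer cells of a type and less RNA per cell cannot be told apart.

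Markers of 2 tissues that use the pump in ion transport were summed in the same way. The 5 Malpighian tubule markers summed to 138 to 172 CPM in cond.2 knockouts, against 139 to 151 CPM in cond.2 controls, and to 127 to 137 CPM in cond.19-4 knockouts, against 112 to 129 CPM in cond.19-4 controls. Between controls 1 was higher and 1 lower in cond.2 females, against 22.7% and 24.2% of all genes. They were Uro at 1.14 (edgeR adjusted p = 0.00151) and Irk3 at −0.72 (adjusted p = 0.00429). Knockout against control, Uro was higher in cond.19-4 females, at 47.2, 49.1 and 45.1 CPM in knockouts, against 30.0, 24.3 and 35.8 CPM in controls (log2 fold change 0.65, SE 0.11, edgeR adjusted p = 0.00445). Of the 5 tubule markers 2 were positive and 3 negative there, with a median of −0.07. The copper cell markers were lab and Vha100-4, itself a V-ATPase gene, and their sum stayed between 8.18 and 13.5 CPM over all libraries. Of 6 testis markers 3 were at 0 in every library, and the 6 summed to at most 8.17 CPM. Between controls, of the other marker lists, 1 of 6 midgut enterocyte genes was higher and 4 lower in cond.2 females. Of 5 germline genes 2 were higher and 2 lower, and 1 of 4 muscle and 1 of 4 neuron genes were lower. The shares of all genes were again 22.7% higher and 24.2% lower. Between knockouts 1 of the 5 fat body genes was higher and 2 lower in cond.2 females, and 1 of the 6 follicle cell genes was lower. In the midgut list 1 gene was higher and 1 lower, and in the germline list 1 was higher and 1 lower. In addition 3 muscle genes and 1 neuron gene were lower. The shares of all genes were 11.8% higher and 7.73% lower. Knockout against control in cond.19-4 females, 1 midgut gene was higher (Mal-A1) and 2 were lower (Jon99Cii and Jon99Ciii). The muscle gene Mhc was higher at 0.36 (edgeR adjusted p = 0.00462). Of the 4 muscle genes 3 were positive, and 1 was negative at −0.48 and not called. The shares of all genes were 2.67% higher and 1.04% lower. In cond.2 females the germline gene nos was lower at −0.56 (edgeR adjusted p = 0.038), where 0.466% of all genes were lower. On average nos was lower and the muscle gene wupA higher, where 2.08% of all genes were lower and 2.1% higher. The part of these markers in the V-ATPase results was not tested either.

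Genes that act with the pump gave further values. Of 6 assembly factors and partners, among which VhaM8.9 is also a member, 3 were lower in cond.2 than in cond.19-4 controls and 0 higher, where 24.2% of all genes were lower, with a median of −0.20. They were mtd, a TLDc domain protein, at −0.41 (SE 0.06, edgeR adjusted p = 0.000217), Snx3, an endosomal sorting nexin, at −0.32 (SE 0.06, adjusted p = 0.00088), and Rbcn-3A, of the complex that rejoins V1 to V0, at −0.20 (SE 0.07, adjusted p = 0.0436). Between knockouts mtd alone was lower, at −0.19 (SE 0.06, edgeR adjusted p = 0.0416). Mitf, a transcription factor of lysosomal and V-ATPase genes, which was singled out after its values were seen, lay between 164 and 194 CPM in the 12 libraries and was called in none of the comparisons.

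Of 20 lysosomal and nutrient-sensing genes 18 were tested. Between controls 8 were higher and 5 lower in cond.2 females, against 22.7% and 24.2% of all genes, with a median of 0.12, so that the list had both signs where the V-ATPase calls had 11 of 12 lower. CG31414, a glucocerebrosidase gene, was at 79.2, 43.5 and 55.5 CPM in cond.2 controls, against 2.60, 2.24 and 3.01 CPM in cond.19-4 controls (log2 fold change 4.50, SE 0.41, edgeR adjusted p = 1.52e-05). Lamp1, a lysosomal membrane protein, was lower at −0.57 (SE 0.08, adjusted p = 0.000172), and CG12163, a cathepsin F gene, higher at 0.61 (SE 0.10, adjusted p = 0.000385). Between knockouts 5 were higher and 1 lower, against 11.8% and 7.73% of all genes.

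Of 14 genes listed for epithelial ion transport, all were tested. Between controls 6 were higher and 4 lower in cond.2 females, against the same shares of all genes, with a median of 0.32. CAH2, a carbonic anhydrase, was lower at −0.83 (SE 0.08, edgeR adjusted p = 2.47e-05), CG31547, a cation and chloride cotransporter, higher at 1.44 (SE 0.20, adjusted p = 0.000154), and ClC-a, a chloride channel, higher at 0.90 (SE 0.13, adjusted p = 0.000219). Between knockouts 4 were higher and 2 lower, again against 11.8% and 7.73% of all genes. Knockout against control, none of the genes in these 3 lists was called in edgeR with either allele. On average over the alleles CAH2 alone rose (log2 fold change 0.25, SE 0.06, edgeR adjusted p = 0.0401).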

How the data were processed

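Per the labels and the methods of the study, RNA of whole females was extracted, sequenced as paired reads of 150 bp, aligned with TopHat and counted per gene with HTSeq by the authors. The deposited values are raw counts, with no normalization. The deposited gene length (other, in bp) was used for FPKM. Tool versions, genome build and strand setting were not stated in the sources used here. Of 17558 identifiers 17252 were in the BDGP6 annotation (Ensembl release 115), as were all 33 members, of which 29 had the same coordinates. No table of sequences was given, so the planned description of promoters and proteins was not made.

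Counts were tested with edgeR 4.0.16 (quasi-likelihood test, two-sided, trimmed mean of M values, filterByExpr) in R 4.3.3, and calls were made at a Benjamini-Hochberg adjusted p under 0.05 over every gene in the fit. The fit of an allele used its 6 libraries and left 9660 genes (cond.2) and 9717 genes (cond.19-4). The other 4 comparisons came from a fit of 10029 genes in all 12 libraries, and the comparisons share libraries. CPM was scaled over all 12 libraries. The study used DESeq2, which (version 1.42.0) was an alternative here, beside total counts as library size, DESeq2 size factors in edgeR, 2 other filters on low counts, a threshold of 0.01, a block for the replicate number, all 12 libraries in 1 fit, each library left out in turn, and libraries 1 of both cond.2 groups left out. The single-allele fits were tested on simulated data, and the fit of all 12 libraries was not. Python 3.11.15 with matplotlib 3.10.9, numpy 2.4.6 and pandas 2.3.3 made the tables and plots.

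Every member is accounted for. Values per library are given for members called in any comparison and for the gene of each subunit with the highest FPKM, and from each other list up to 3 genes with the lowest p. The members, the lists and the alternatives were chosen with earlier results of these data known.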

Additional observations from a re-analysis of the deposited data

How the results depend on the processing

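With DESeq2 in place of edgeR the number of V-ATPase transcripts called was 3 for cond.2 knockout against control, 8 for the average knockout effect and 3 for the difference between the alleles, beside 0, 4 and 0 in the main test, and over all genes it called 5.92, 8.21 and 4.72%, beside 0.631, 4.19 and 0.0598%. A single fit of all 12 libraries called 6 for cond.2, where the share over all genes was 14.1% in place of 0.631%. Total counts as library size gave 2 for the average effect (3.16% of all genes), the replicate number as a block gave 1 (2.37%), and a threshold of 0.01 gave 1 (1.18%), with 3 for the knockouts of the 2 stocks in place of 9 (9.55%). With each library left out in turn the average effect had 1 to 5 calls (1.57 to 5.53% of all genes). The difference between the alleles then had 0 to 2 (0.00981 to 4.8%). The stock difference had 11 to 13 for controls (38.1 to 46.6%) and 4 to 10 for knockouts (11.4 to 23.4%). Both single-allele comparisons had 0 (0.153 to 0.446% in cond.2 and 2.27 to 4.26% in cond.19-4). The cause was not tested. Same-numbered libraries did not deviate together (correlation −0.30, −0.17 and 0.00 in cond.2, 0.02, 0.05 and −0.00 in cond.19-4). Differently numbered libraries were not compared in this way, so these values cannot exclude a pairing by experiment. With the block the calls were 0 in each allele (0.0932% of all genes in cond.2 and 3.98% in cond.19-4). There were 12 for the controls (43.8%) and 6 for the knockouts (15.7%). Of 500 alternative values of the 25 called changes, 428 stayed past the threshold, 72 did not and 0 changed sign. Between controls 11 of the 12 calls held throughout, all but VhaM9.7-c. With 3 libraries a group, a missing call does not show that levels were equal, and the 11 transcripts that were at most at 0.925 CPM were not tested.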
